A study of Bos taurus with 8 samples.

Results

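Expression of 9 tight junction genes was followed in bovine embryonic stem cells (bESCs) grown on feeders or without them: the claudins CLDN3, CLDN4, CLDN6, CLDN7 and CLDN10, the MARVEL domain proteins OCLN and MARVELD2, the junctional adhesion molecule F11R and the scaffold TJP1. They were chosen by name for their place in the junction, with earlier results of these data known. All 9 were found among the 32640 genes of the count table. The libraries came from 4 independent female (XX) lines, A, C, D and E, each derived from a whole in vitro embryo and cultured in 5% O2 in a medium based on FGF2 and the WNT pathway inhibitor IWR-1. Each line gave 1 library on irradiated mouse embryonic fibroblasts (MEF, passages 15 to 17) and 1 library in feeder-free culture on the matrix protein vitronectin (passages 20 to 22). According to the methods, the feeder-free medium carried Activin A, a TGF-β family ligand, whereas the sample names give the same medium code for both conditions. Feeders, matrix, passage and, by the methods, Activin A therefore changed together and cannot be told apart. The removal of MEF reads that the methods describe bears on the MEF libraries alone. It cannot be told apart from the condition either. Total counts were between 44268717 and 54296425 per library on MEF, and 49671478, 51320214, 102351560 and 51068232 in feeder-free lines A, C, D and E. The totals of the conditions were not separated (two-sided exact permutation test, p = 0.171, where the smallest p that 4 against 4 allows is 0.0286).

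Tight junctions seal the space between neighbouring epithelial cells near their apical edge. Claudins form the strands and set which ions and small molecules pass, occludin (OCLN) and tricellulin (MARVELD2) join the strands at contacts between cells, junctional adhesion molecules hold the membranes together, and scaffolds such as ZO-1 (TJP1) tie the strands to actin. Pluripotent cells of the epiblast are an epithelium, and cells in culture keep parts of this machinery as they grow in compact colonies.

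In feeder-free culture, CLDN6, CLDN7, OCLN and MARVELD2 rose in the paired comparison, in which each line was its own control, by 2.04, 2.14, 1.66 and 1.77-fold. When lines were left out in turn, CLDN6, CLDN7 and OCLN were called in 4 of 4 paired fits and MARVELD2 in 1. No member was called lower in the paired comparison. In the unpaired comparison none of the 9 passed the test. CLDN3 and F11R were also higher in every line without passing, CLDN4 and CLDN10 were barely expressed, and TJP1 differed by -0.09 on the log2 scale. Both comparisons were edgeR quasi-likelihood fits over 15744 genes, in which a gene was called where its Benjamini-Hochberg adjusted p was under 0.05 and it differed by 1.5-fold or more. All 9 members passed the filter on low counts, CLDN4 with 2 MEF and 3 feeder-free libraries at its level of 0.199 CPM and CLDN10 with 3 and 4, and the others with all 8. The unpaired fit called 0.724% of all genes higher and 1% lower in feeder-free culture, and 0 of 9 members. Before adjustment, 4 members (CLDN3, CLDN6, CLDN7 and OCLN) had a p under 0.05 with a higher level in feeder-free culture, against 10.2% of all genes. DESeq2, run without pairing, called CLDN6 (adjusted p = 0.00185), CLDN7 (0.0457) and OCLN (0.0363) higher and no member lower, against 4.41% and 3.28% of all genes. The paired fit called 5.52% of all genes higher and 4.53% lower, and 4 of 9 members higher. The level was higher without feeders in 4 of 4 lines for 6 members, against 20.2% of all genes. The median log2 fold change of the members in the unpaired fit was 0.71, from -0.56 to 1.20, beside a median of 0.006 over all genes tested. These shares and medians are descriptions, since the members were chosen with earlier results of these data known.

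**Figure D1:**
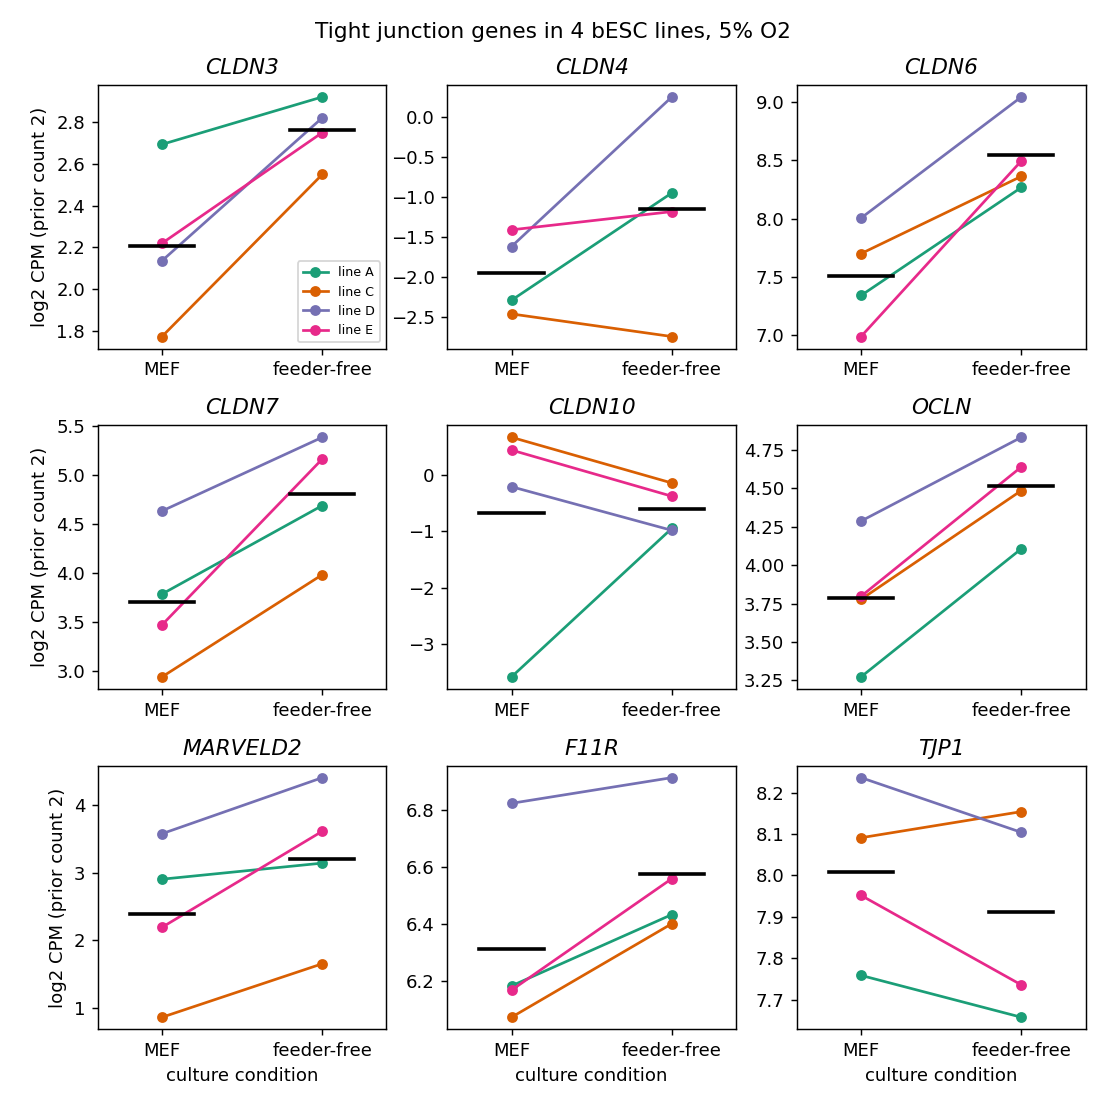
Level of each tight junction gene as log2 CPM (prior count of 2), on MEF and in feeder-free culture, with 1 point per library, lines joining the libraries of a bESC line, and black bars for the mean of 4 libraries. The vertical scale differs between panels. CLDN3, CLDN6, CLDN7, OCLN, MARVELD2 and F11R were higher without feeders in all 4 lines, and only CLDN6 had no overlap between the conditions.

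Among the claudins, CLDN6, an early embryonic claudin of pluripotent and epithelialising cells, showed the clearest difference. The gene (gene ID 511318) lies on chromosome 25 (2433098 to 2436408, bovine build ARS-UCD2.0, also used for the other genes). Its level on MEF was 162, 208, 257 and 127 CPM (counts scaled to the sequencing depth of each library) in lines A, C, D and E. In feeder-free culture it was 308, 329, 526 and 360 CPM in the same order. Every feeder-free library was above every MEF library, a separation found in 6.21% of all genes and in 1 of the 9 members. No member was separated in the lower direction, against 8.36% of all genes. The means were 188.5 ± 56.2 and 380.7 ± 99.4 CPM (SD, n = 4). The log2 fold change was 1.01 ± 0.25 (SE) in the unpaired edgeR fit (adjusted p = 0.0617) and 1.03 ± 0.14 in the paired fit (adjusted p = 0.00233). With each line left out in turn, the paired value stayed between 0.89 and 1.17 and the gene was called in 4 of 4 fits.

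CLDN7, a claudin that also lies along the lateral membrane and binds EpCAM, is encoded on chromosome 19 from 26969999 to 26972223 (gene ID 512975). Its level was 13.8, 7.65, 24.8 and 11.1 CPM on MEF in lines A, C, D and E. Without feeders it was 25.8, 15.8, 41.8 and 35.8 CPM. The conditions overlapped because the lines differed, with line D highest and line C lowest in both, while within each line the feeder-free library was the higher one. The means were 14.3 ± 7.41 and 29.8 ± 11.4 CPM (SD, n = 4). The log2 fold change was 1.06 ± 0.39 (SE, adjusted p = 0.158) in the unpaired and 1.10 ± 0.17 (adjusted p = 0.00423) in the paired edgeR fit. It was called in 4 of 4 paired fits that left out 1 line, at 0.91 to 1.22.

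CLDN3, a barrier-forming claudin, lies on chromosome 25 from 33507968 to 33509182 (gene ID 404153). On MEF it was at 6.43, 3.38, 4.36 and 4.62 CPM in lines A, C, D and E, and in feeder-free culture at 7.54, 5.82, 7.04 and 6.70 CPM. All 4 lines were higher without feeders, but line A on MEF was above feeder-free line C. The log2 fold change was 0.53 ± 0.23 (SE, adjusted p = 0.229) in the unpaired edgeR fit and 0.56 ± 0.19 (adjusted p = 0.0770) in the paired fit, and neither passed.

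CLDN4, its neighbour on chromosome 25 (33477754 to 33479301, gene ID 414921), is an epithelial claudin like CLDN3, and 28666 bases separate the genes. It was barely detected, with 7, 8, 14 and 15 reads on MEF and 24, 6, 118 and 21 reads without feeders in lines A, C, D and E. Feeder-free line D stood apart at 1.15 CPM, against 0.113 to 0.482 CPM in the other feeder-free libraries. The log2 ratio within lines ran from -0.28 in line C to 1.87 in line D. The unpaired log2 fold change was 1.20 ± 0.67 (SE, edgeR adjusted p = 0.338), and 0.50 without feeder-free line D.

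CLDN10, a claudin with splice forms that make cation or anion pores, lies on chromosome 12 from 72904648 to 73009452 (gene ID 506545). Its counts were 2, 85, 40 and 58 on MEF and 24, 46, 48 and 38 without feeders in lines A, C, D and E. The lines did not move together. Line A had a log2 ratio of 2.63, and lines C, D and E had ratios of -0.81, -0.77 and -0.82. The unpaired log2 fold change was -0.56 ± 0.74 (SE, edgeR adjusted p = 0.722), with an interval of 2 SE from -2.03 to 0.92, and limma-voom put it at 0.009. In the paired fit it was -0.20, and between -0.83 and 0.11 with each line left out in turn.

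**Figure D2:**
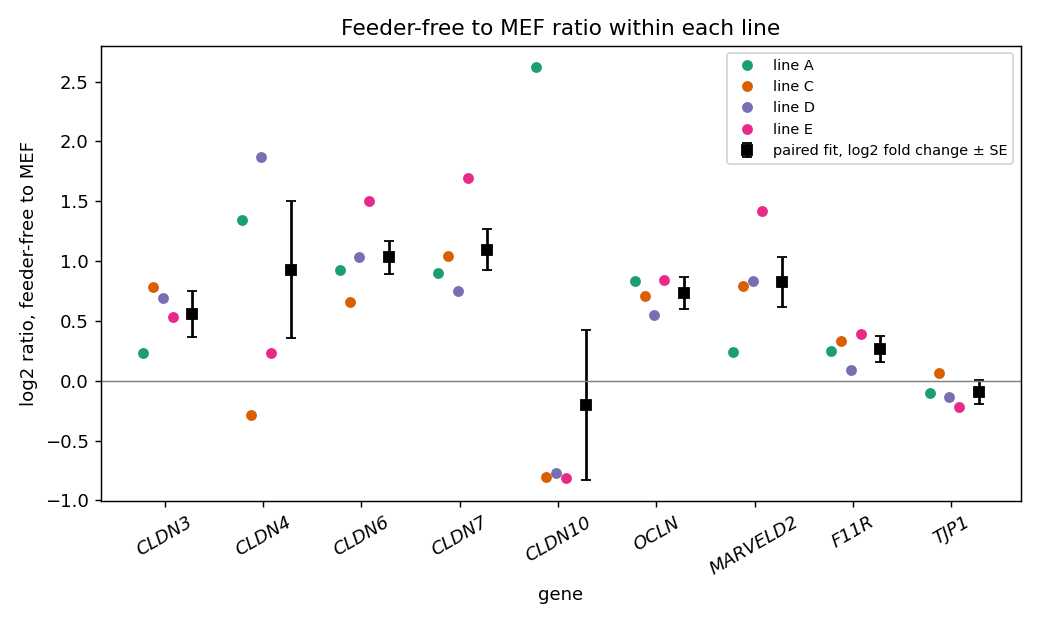
Log2 ratio of feeder-free to MEF level within each bESC line (coloured points) for each tight junction gene, and log2 fold change ± SE of the paired edgeR fit (black squares). All 4 lines lie above 0 for 6 genes. The widest spread among lines is that of CLDN10, from -0.82 to 2.63.

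Of the MARVEL domain proteins, OCLN (chromosome 20, 10229399 to 10276416, gene ID 512405) had the most even difference among the lines. The level was 9.63, 13.7, 19.5 and 13.9 CPM on MEF in lines A, C, D and E, and 17.2, 22.4, 28.5 and 24.9 CPM without feeders. Line D was highest and line A lowest in both conditions, and only feeder-free line A fell within the range of the MEF libraries. The log2 ratios within lines were 0.84, 0.71, 0.55 and 0.84. The means were 14.2 ± 4.05 and 23.2 ± 4.74 CPM (SD, n = 4). The log2 fold change was 0.71 ± 0.24 (SE, adjusted p = 0.121) in the unpaired and 0.73 ± 0.13 (adjusted p = 0.00775) in the paired edgeR fit, and the paired call was also made with each line left out in turn.

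MARVELD2, which gathers where 3 cells meet, lies 41200 bases from OCLN on chromosome 20 (10317617 to 10341096, gene ID 541110). Its level was 7.44, 1.78, 11.9 and 4.53 CPM on MEF in lines A, C, D and E, and 8.79, 3.11, 21.2 and 12.2 CPM without feeders. The lines differed more than the conditions. The highest line was at 6.68 times the lowest on MEF and at 6.81 times it in feeder-free culture. The log2 ratio within lines was 0.24 in line A and 0.79, 0.83 and 1.42 in lines C, D and E. The log2 fold change was 0.82 ± 0.63 (SE, adjusted p = 0.500) in the unpaired and 0.83 ± 0.21 (adjusted p = 0.0276) in the paired edgeR fit. The paired call was lost without line C (adjusted p = 0.0774), line D (0.120) or line E (0.0699), and over the 4 fits that left out 1 line the log2 fold change was 0.63 to 1.02.

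F11R, also known as JAM1, holds cell contacts together and recruits polarity proteins. The gene lies on chromosome 3 from 8442790 to 8488978 (gene ID 281258). It was at 72.6, 67.3, 113 and 71.9 CPM on MEF and at 86.3, 84.5, 120 and 94.3 CPM without feeders in lines A, C, D and E. Line D was high in both conditions, and the log2 ratios of 0.25, 0.33, 0.09 and 0.39 were above 0 in every line. The log2 fold change was 0.25 ± 0.19 (SE, adjusted p = 0.507) in the unpaired edgeR fit and 0.27 ± 0.11 (adjusted p = 0.118) in the paired one.

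TJP1, which encodes the scaffold ZO-1, lies on chromosome 21 from 28398722 to 28658027 (gene ID 407102). Its level was 217, 273, 302 and 248 CPM on MEF and 202, 285, 275 and 213 CPM without feeders in lines A, C, D and E. It was lower without feeders in lines A, D and E and higher in line C. The log2 fold change was -0.09 ± 0.16 (SE, edgeR adjusted p = 0.800), with an interval of 2 SE from -0.41 to 0.23. In the paired fit it was -0.10 ± 0.10 (adjusted p = 0.550).

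Some members shared their highest or lowest line. Line D had the highest level in both conditions for 5 members (CLDN6, CLDN7, OCLN, MARVELD2 and F11R), and line C the lowest in both for 5 (CLDN3, CLDN4, CLDN7, MARVELD2 and F11R). Line A was highest in both conditions for CLDN3 and line C for CLDN10. The share of all genes with such a line order was not counted. Over all genes tested, the deviations of a line's libraries from the condition means correlated at 0.421 to 0.664. Feeder-free line D was the most deeply sequenced library, and MEF line D had 47836940 counts. The part of depth in these levels was not tested. On MEF, leaving aside the barely detected CLDN4 and CLDN10, the highest line was at 1.39 times the lowest for TJP1, at 3.24 times it for CLDN7 and at 6.68 times it for MARVELD2.

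Outside the 9 members, 86 further genes of tight junctions, polarity, epithelial adhesion and epithelial gene control were listed by name, of which 85 were in the count table and 69 were tested. Of these, CLDN1, ESAM and SNAI2 reached the level of the count filter in all 4 feeder-free libraries but in 2, 0 and 0 MEF libraries. They were tested only through the condition where they are high and are left out of the counts that follow in this paragraph. The numbers of tested genes given below for single lists still hold them. Among the other 66, the unpaired fit called none, while 5 had an unadjusted p under 0.05 and were higher without feeders and 10 were lower, against 10.2% and 11.4% of all genes. The paired fit called 3 higher (CLDN9, MYLK and KLF5) and 5 lower, beside the 5.52% and 4.53% of all genes. The number called lower was 1 without line D, 1 without line E and 3 without line C. The median log2 fold change of the 66 genes was 0.007. The 66 still hold claudins that missed the filter level in some libraries. CLDN23 reached it in 1 MEF and 3 feeder-free libraries, CLDN15 and CLDN19 in 3 and 4, and CLDN20 in 4 and 3. None of these was called in either fit or had an unadjusted p under 0.05 in the unpaired fit.

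Of 16 other claudins in the table, 7 were tested and CLDN8 and CLDN25 had no read in any library. CLDN9, whose gene lies 214 bases from CLDN6 (chromosome 25, 2430977 to 2432883), was at 2.35, 2.98, 4.01 and 1.56 CPM on MEF and at 4.96, 5.74, 9.72 and 6.18 CPM without feeders in lines A, C, D and E. Every feeder-free library was above every MEF library. Its log2 fold change was 1.29 ± 0.34 (SE, adjusted p = 0.0738) in the unpaired edgeR fit and 1.31 (adjusted p = 0.00797) in the paired fit, where it was also called with each line left out in turn. CLDN1, a claudin needed for the skin barrier, had 0, 15, 10 and 0 reads on MEF and 26, 28, 211 and 22 reads without feeders, and its call in the paired fit is not read as a result. CLDN12, named after its values were seen, is expressed in many tissues and was at 24.8 ± 2.25 CPM on MEF and 24.0 ± 3.14 CPM without feeders (SD, n = 4), an unpaired log2 fold change of -0.05 (edgeR adjusted p = 0.885).

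Among the 6 other membrane proteins tested, which include ESAM, 0 were called in either fit, beside 5.52% of all genes higher and 4.53% lower in the paired fit. LSR, the tricellular protein angulin-1, was at 65.1 ± 6.91 CPM on MEF and 86.6 ± 15.8 CPM without feeders (SD, n = 4) and was higher in 4 of 4 lines. Its paired log2 fold change of 0.40 (edgeR adjusted p = 0.0323) was under 1.5-fold. The adhesion receptor CXADR had an unpaired log2 fold change of 0.32 (adjusted p = 0.384).

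Of 17 plaque and scaffold genes, the paired fit called 1 higher and 1 lower, close to the 5.52% and 4.53% of all genes. The median log2 fold change of the list was 0.01. MYLK, the myosin light chain kinase that contracts the actin belt, was at 12.0 ± 7.20 CPM on MEF and 23.1 ± 16.6 CPM without feeders (SD, n = 4). Its log2 fold change was 0.95 ± 0.62 (SE, adjusted p = 0.423) in the unpaired edgeR fit and 0.83 ± 0.16 (adjusted p = 0.00877) in the paired fit, whose call was lost without line C (adjusted p = 0.0561). AMOTL1, an angiomotin that binds the Hippo effector YAP, went the other way, from 77.6 ± 3.83 to 50.7 ± 8.39 CPM with no overlap between conditions. The log2 fold changes were -0.61 ± 0.14 (SE, adjusted p = 0.0510) and, paired, -0.63 (adjusted p = 0.0123). This call was lost without line D (-0.61, adjusted p = 0.0614) and without line E, where the difference of -0.50 was under 1.5-fold.

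Of 17 polarity genes tested, 7 were lower without feeders in all 4 lines, against 20.7% of all genes. The paired fit called 2 lower and 0 higher, against 4.53% and 5.52% of all genes. The 2 called lower were CRB1 and CRB2, Crumbs proteins that mark the apical membrane. CRB1 was at 5.79 ± 1.54 CPM on MEF and 2.80 ± 1.63 CPM without feeders, with a log2 fold change of -1.05 ± 0.40 (SE, adjusted p = 0.166) and, paired, -1.15 (edgeR adjusted p = 0.0226). CRB2 was at 31.1 ± 9.01 and 20.2 ± 5.61 CPM, with -0.63 (adjusted p = 0.189) and, paired, -0.62 (adjusted p = 0.0423). Each was called in 1 of 4 paired fits that left out a line, CRB1 without line C and CRB2 without line A, with adjusted p up to 0.106 and 0.211 in the others. PARD3, named here after its values were seen, recruits polarity complexes to junctions and had a paired log2 fold change of -0.52 (adjusted p = 0.0147), under 1.5-fold.

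None of the 10 epithelial adhesion partners tested was called in either fit, beside 5.52% of all genes higher and 4.53% lower in the paired one. CTNNB1 (β-catenin) was at 888.9 ± 16.5 CPM on MEF and 688.2 ± 54.8 CPM without feeders, with no overlap. Its paired log2 fold change of -0.37 (edgeR adjusted p = 0.0330) was under 1.5-fold. CTNNA1 (α-catenin) had an unpaired log2 fold change of 0.03 (adjusted p = 0.946). EPCAM and CDH1 were looked up after the values were seen. EPCAM, the partner of claudin-7, was at 168, 141, 211 and 171 CPM on MEF and 268, 203, 293 and 236 CPM without feeders in lines A, C, D and E. It was higher in 4 of 4 lines, and its paired log2 fold change of 0.53 (adjusted p = 0.00910) was under 1.5-fold. CDH1 (E-cadherin) differed little, with a paired log2 fold change of 0.12 (adjusted p = 0.512) and an interval of 2 SE from -0.11 to 0.35.

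Of 7 epithelial factors tested, KLF5, a zinc finger factor of epithelia and pluripotent cells, was the 1 called higher in the paired fit, against 5.52% of all genes. It was at 3.65, 3.12, 6.44 and 1.86 CPM on MEF and at 8.51, 12.7, 34.1 and 12.8 CPM without feeders in lines A, C, D and E. All feeder-free libraries were above all MEF libraries. The log2 fold change was 2.18 ± 0.50 (SE, adjusted p = 0.0560) in the unpaired and 2.11 ± 0.25 (adjusted p = 0.00151) in the paired edgeR fit, and it was called with each line left out in turn. Of 5 repressors of epithelial genes tested, which include SNAI2, the paired fit called ZEB1 and ZEB2 lower, against 4.53% of all genes. ZEB1 was at 28.4 ± 6.98 CPM on MEF and 14.1 ± 2.86 CPM without feeders, with no overlap, a log2 fold change of -1.01 ± 0.22 (SE, adjusted p = 0.0511) and, paired, -0.995 (adjusted p = 0.0112), and was also called in all 4 paired fits that left out a line. ZEB2 was at 15.1 ± 6.72 and 9.56 ± 4.36 CPM, with a paired value of -0.68 (adjusted p = 0.0202), a call made in 1 of those 4 fits, that without line A. SNAI2, another repressor and named after its values were seen, lay the other way at low counts, with 8, 10, 4 and 2 reads on MEF and 13, 36, 58 and 37 without feeders.

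**Figure D3:**
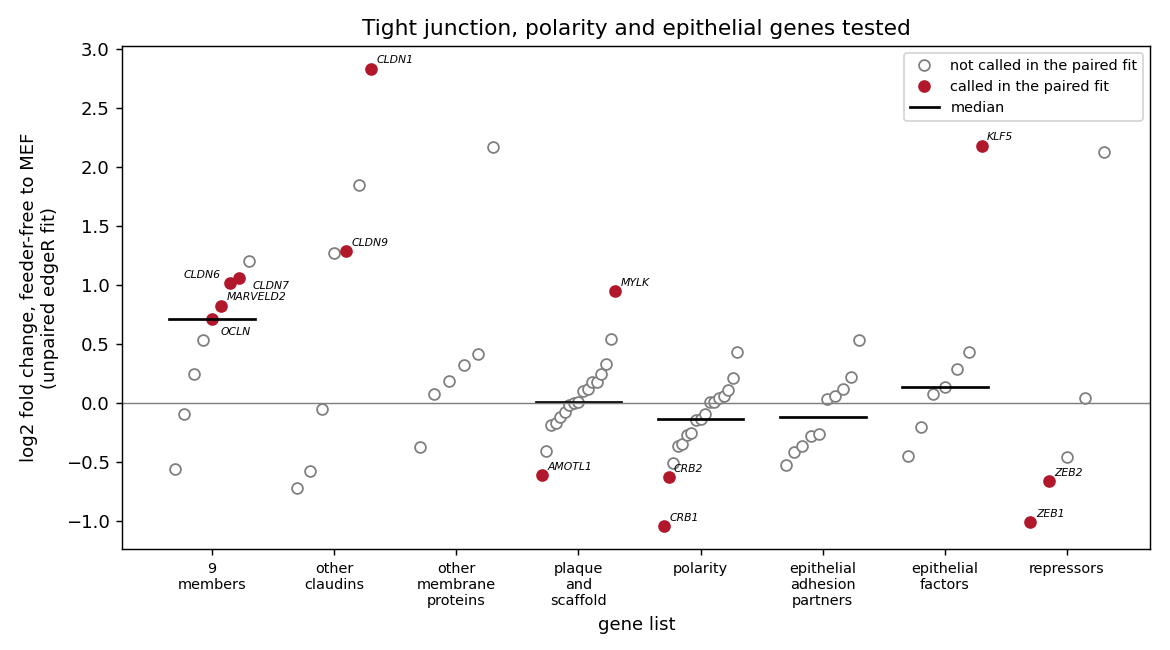
Log2 fold change of feeder-free over MEF culture in the unpaired edgeR fit, with 1 point per tested gene in each list, bars for the list medians (none for the lists that hold CLDN1, ESAM or SNAI2, which passed the count filter only through their feeder-free libraries), and filled points with names for genes called in the paired fit. The median is 0.71 for the 9 members, 0.01 for the plaque and scaffold genes and -0.14 for the polarity genes; differences between lists were not tested.

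The surroundings of the members in the genome were examined because neighbouring or overlapping genes can share reads, and the strand setting of the counting is not given in the sources used here. Within 50 kb of CLDN6, 8 other genes were tested, with a median log2 fold change of 0.68. The unpaired fit called 1 higher, and the paired fit called 3, TNFRSF12A, CLDN9 and MMP25, beside 0.724% and 5.52% of all genes. TNFRSF12A (receptor of the cytokine TWEAK), overlaps CLDN6 by 473 bases. It was at 2.31, 2.23, 2.87 and 2.18 CPM on MEF and 6.16, 19.8, 55.5 and 25.4 CPM without feeders in lines A, C, D and E, a log2 fold change of 3.48 ± 0.57 (SE, edgeR adjusted p = 0.0331) in the unpaired and 3.14 (adjusted p = 0.00190) in the paired fit. The unpaired call was made in 1 of 8 fits that left out a library and the paired call in all 4 that left out a line. The CPM that TNFRSF12A gained was 2.65, 14.5, 19.5 and 9.98% of the CPM that CLDN6 gained in lines A, C, D and E. The part of shared reads in either gain was not tested. MMP25, a matrix metalloproteinase gene, was at 118, 148, 185 and 117 CPM on MEF and 198, 258, 408 and 201 CPM without feeders. Its log2 fold change was 0.91 (edgeR adjusted p = 0.0860) in the unpaired and 0.87 (adjusted p = 0.00196) in the paired fit, with a call in all 4 paired fits that left out a line. The unpaired values of the other tested genes of this stretch were BICDL2, at 0.74 (adjusted p = 0.129), GREP1, at 0.62, THOC6, at 0.23, HCFC1R1, at 0.10, and PKMYT1, at 0.06 on the log2 scale.

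Around CLDN7, 11 genes were tested within the same distance, with a median log2 fold change of -0.07. The unpaired fit called 0 and the paired fit called 1 lower, beside 4.53% of all genes. This was YBX2, which encodes a germ cell RNA-binding protein (-0.63, edgeR adjusted p = 0.00953, called in 3 of 4 fits that left out a line). Among the tested neighbours of the other members the unpaired fit called 0 and the paired fit only OCLN and MARVELD2, which are neighbours of each other. There were 4 for CLDN3, 2 for CLDN4, 2 for CLDN10, 3 for OCLN, 4 for MARVELD2 and 4 for F11R, and TJP1 had none tested. F11R overlaps TSTD1 by 1466 bases, and TSTD1 gained 0.305, 1.83, 1.82 and 3.57 CPM in lines A, C, D and E where F11R gained 13.7, 17.2, 7.29 and 22.4 CPM. The tRNA and 2 microRNA genes inside OCLN had at most 11 reads in a library.

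**Figure D4:**
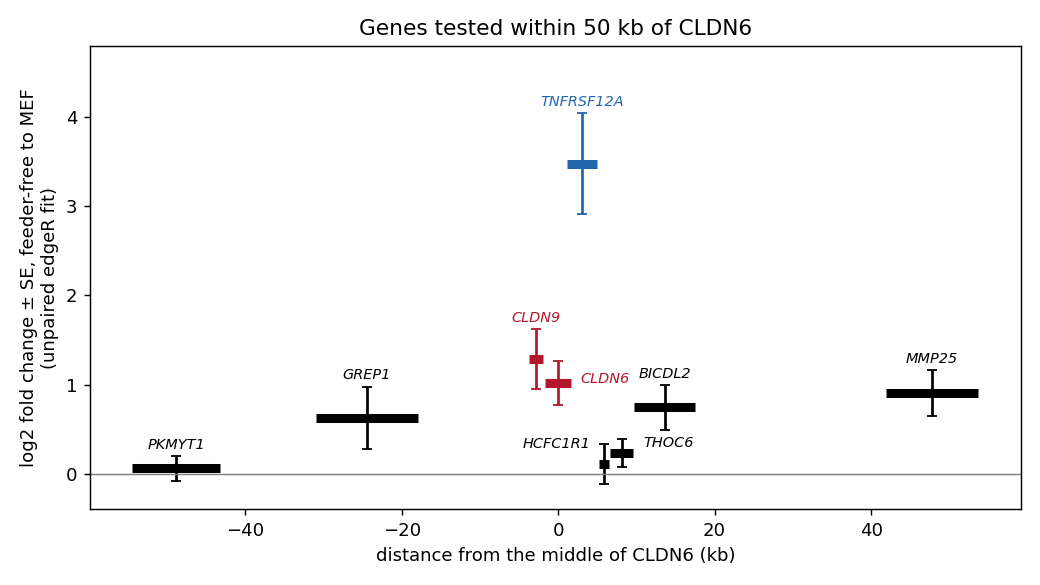
Log2 fold change ± SE of feeder-free over MEF culture (unpaired edgeR fit) for genes tested within 50 kb of CLDN6, placed by distance in kb from its middle. Horizontal bars span each gene, with the claudins in red and the gene called in the unpaired fit in blue. TNFRSF12A lies at 3.48, CLDN9 at 1.29 and CLDN6 at 1.01, and PKMYT1, HCFC1R1 and THOC6 lie at 0.06 to 0.23.

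Markers of the labelled cell type and of cells that could accompany it were set beside these values. In these bulk libraries, more cells of a type and more RNA per cell cannot be told apart. The 7 pluripotency genes, led by POU5F1, summed to 4671 to 5358 CPM on MEF and 4082 to 4708 CPM without feeders. Of these, 5 were lower without feeders in all 4 lines (SOX2, NANOG, LIN28B, SALL4 and OTX2), against 20.7% of all genes. The paired fit called 1 lower, OTX2, at -0.66 on the log2 scale (edgeR adjusted p = 0.00495), against 4.53% of all genes. In that fit SALL4, at -0.58 (adjusted p = 0.00614), SOX2, at -0.346 (0.0436), and LIN28B, at -0.345 (0.0456), were under 1.5-fold. SALL4 was also under 1.5-fold in the unpaired fit (edgeR adjusted p = 0.0426). NANOG, at -0.30 (adjusted p = 0.0824), and POU5F1, at -0.14 (adjusted p = 0.380), did not pass in the paired fit. The part of these differences in the junction values was not tested. The trophoblast markers CDX2, IFNT2 and PAG2 had no read in any library. KRT7, an epithelial keratin also found in trophoblast, led that list of 9 genes, of which 5 were under 1 CPM in every library. The list summed to 38.4, 22.6, 23.3 and 22.5 CPM on MEF and 42.8, 66.7, 63.2 and 115 CPM without feeders, and without KRT7 to 1.78 to 3.61 and 1.83 to 6.42 CPM. KRT7 itself had a paired log2 fold change of 1.46 (edgeR adjusted p = 0.0129), a call lost without line C (adjusted p = 0.0559). Of the other listed trophoblast genes, GATA2 was called lower in the paired fit, at -1.45 on the log2 scale (edgeR adjusted p = 0.0447). It had 62, 79, 39 and 34 reads on MEF and 22, 31, 20 and 24 without feeders in lines A, C, D and E. GATA2 reached the level of the count filter in 4 MEF and 3 feeder-free libraries, so that this call is not read as a result. PTGS2, which encodes an enzyme of prostaglandin synthesis, had 8, 10, 16 and 18 reads on MEF and 59, 125, 130 and 64 without feeders. Both fits called it higher, but it reached the level of the count filter in only 2 MEF libraries against 4 without feeders, so that its call is not read as a result either.

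Hypoblast and endoderm markers, 7 genes led by the apolipoprotein gene APOA1, summed to 65.0, 57.4, 51.5 and 112 CPM on MEF and 128, 189, 240 and 198 CPM without feeders. APOA1 rose by 1.53 on the log2 scale in the unpaired fit (edgeR adjusted p = 0.0349) and by 1.56 in the paired fit (adjusted p = 0.00266). The unpaired call was made in 1 of 8 fits that left out a library (adjusted p up to 0.116), and the paired call in all 4 that left out a line. Without it the other 6 genes summed to 5.79, 3.69, 6.73 and 14.2 CPM on MEF and 3.33, 3.39, 5.64 and 4.81 CPM without feeders in lines A, C, D and E, a lower value in every line, and 5 of the 7 were under 1 CPM in every library. Most of this sum was FOXA2, a transcription factor of endoderm, which was lower without feeders in 4 of 4 lines and had a paired log2 fold change of -0.78 (edgeR adjusted p = 0.0631). The part of such cells in the higher junction values was not tested. Of 6 neural and surface ectoderm markers, all were under 1 CPM in every library.

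Fibroblast markers, 10 genes led by COL1A1, summed to 331, 444, 414 and 415 CPM on MEF and 162, 722, 1143 and 325 CPM without feeders. The conditions overlapped. The methods describe removing from the MEF libraries the reads that pure MEF would contribute, a step that bears on the MEF libraries alone, and its part in the junction values was not tested. COL1A2 had 38, 253, 225 and 30 reads on MEF and 0, 22, 18 and 2 reads without feeders, and the paired fit called it lower, at -4.35 on the log2 scale (edgeR adjusted p = 0.00166), also with each line left out in turn. It reached the level of the count filter in 4 MEF libraries and 1 feeder-free library, so that this call is not read as a result. COL3A1 had 34, 28, 76 and 8 reads on MEF and 72, 265, 1073 and 96 without feeders. It rose without feeders in the paired fit, by 2.53 on the log2 scale (adjusted p = 0.00654), also with each line left out in turn. It reached the level of the count filter in 3 MEF and 4 feeder-free libraries, so that this call is not read as a result. POSTN, at 0, 4, 32 and 0 reads on MEF and 0, 36, 268 and 12 without feeders, was called higher in the paired fit, at 2.77 (adjusted p = 0.0317). It reached the level of the count filter in 1 MEF library and 3 feeder-free libraries, so that its call is not read as a result either.

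Across the 8 libraries, 3 genes outside the lists followed the mean standardised log2 CPM of the 9 members most closely among 15643 genes. They were WNT2B, a WNT ligand, with a Pearson r of 0.98, ITGA2, the integrin α2 collagen receptor, with 0.97, and RAPGEF5, an exchange factor for RAP GTPases, with 0.96. These values are descriptions, since the 8 libraries come from 4 lines and the genes were picked for them. ITGA2 was at 12.8 ± 3.76 CPM on MEF and 19.5 ± 3.49 CPM without feeders (SD, n = 4). WNT2B had 4, 4, 46 and 12 reads on MEF and 32, 46, 785 and 59 reads without feeders, with line D highest in both. On MEF its level was 0.0960, 0.0726, 0.950 and 0.272 CPM in lines A, C, D and E. Lines A and C lay there below the count filter level of 0.199 CPM, which all feeder-free libraries reached. The place of WNT2B in this ranking is therefore not read as a result.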

How the data were processed

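The table deposited by the authors holds unnormalised counts for each gene in 8 libraries. The authors clipped reads with Trimmomatic, mapped them with STAR (build ARS-UCD2.0), dropped optical duplicates and alignments with a mapping quality under 30, and ran featureCounts (Subread 1.6.2 per the labels). Whether strand was used, and whether pairs or single reads were counted, is not given in the sources used here. Gene spans came from the RefSeq table of ARS-UCD2.0, which gives no exon lengths, so CPM was not corrected for gene length. This also holds where genes are called most abundant, lead a list, are summed or have their gains in CPM set side by side.

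Of 32640 genes, 3 had no values, and 0 columns were left unused. Differential expression used edgeR 4.0.16 in R 4.3.3 (filterByExpr, TMM, glmQLFit, glmQLFTest) with condition as the only term and p-values adjusted by Benjamini-Hochberg over 15744 tested genes, and calls at an adjusted p under 0.05 and 1.5-fold. SE is the log2 fold change divided by the square root of F. CPM used TMM library sizes. The scripts were tested on simulated data.

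The line pairs the libraries by the design, and the deviations of a line's libraries from the condition means correlated at 0.421 to 0.664, against -0.523 to 0.249 between lines. The paired fit, which adds a line term (replicate block), stands beside the unpaired one. No 2 libraries of a condition were alike (smallest chi-square per degree of freedom 43.1 over 12 pairs).

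The 9 members were always named. Of each further list of junction, polarity and epithelial genes, those called in either fit were named, at most 6, and where none was called, the 2 most abundant. Exceptions are marked. The members and lists were chosen with earlier results of these data known. Alternatives were RLE and no scaling, other count filters, the likelihood ratio test, DESeq2 1.42.0, limma-voom 3.58.1, 2-fold, the block, and leaving out libraries or lines. Libraries from high oxygen and from MEF alone were not analysed here.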

Additional observations from a re-analysis of the deposited data

Results flagged for a closer look

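In 46 groups of 4 libraries examined (the named genes on each condition, and total counts), 4 had a library far from the other 3 by Dixon's criterion, where chance gives about 2.3. F11R stood at 6.82 log2 CPM in line D on MEF, against 6.07 to 6.18 in the other MEF libraries. CLDN1 stood at 1.07 log2 CPM in feeder-free line D, with the others between -1.12 and -0.83. CRB1 was at 1.83 log2 CPM in line E on MEF, below 2.66 to 2.79 in the others. The total count of feeder-free line D was 102351560, while lines A, C and E without feeders had 49671478 to 51320214.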

How the results depend on the processing

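The 9 members and 13 further named genes gave 349 values over 16 alternative settings, of which 344 kept their direction, and no call was lost because the unpaired fit made none. Against the unpaired fit the direction reversed for CLDN10 with limma-voom (0.009 on the log2 scale) and for CTNNA1 without MEF A (-0.033), MEF E (-0.021), feeder-free C (-0.032) or feeder-free D (-0.082), within a range of -0.082 to 0.156 over the left-out libraries. In paired fits without line C, D or E, CLDN10 was at 0.114, 0.052 and 0.042, against -0.203 with all lines, and CTNNA1 went as low as -0.019 with a line left out. Of 68 counts of calls that were above 0 in the setting or in the fit it was set against, 23 stayed within 1.5 times and 45 moved by more.

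The number of members called higher was 4 with the replicate block, 3 with DESeq2 (CLDN6, CLDN7 and OCLN) and 1 with the likelihood ratio test (CLDN6), against 0 in the unpaired fit. Over all genes, 114 were called higher and 158 lower in the unpaired fit, 869 and 713 with the replicate block, 695 and 516 with DESeq2, 448 and 389 with the likelihood ratio test, 73 and 97 with no count filter, and 70 and 48 at 2-fold. No scaling called 91 lower, and at least 10 reads in every library called 199 higher. Of the further lists, the block called 5 genes lower and 4 higher, or 3 higher without CLDN1, which passed the count filter only through its feeder-free libraries. DESeq2 called 3 higher and 2 lower, the likelihood ratio test 4 and 2, and at least 10 reads in every library 1 and 2. CLDN1 was not called by DESeq2 (adjusted p = 0.0679) or the likelihood ratio test (adjusted p = 0.0873). ESAM and SNAI2 were not taken out of the counts of these 2 or of the fits that left out 1 library. Leaving out 1 library gave 0 to 259 genes higher and 0 to 231 lower, with 0 to 2 higher in the further lists and 0 members called in each of the 8 fits. Both upper counts came without feeder-free A (259 and 231), and the other 7 fits called at most 5 genes in a direction. Leaving out 1 line from the paired fit gave 376 to 918 genes higher, 366 to 733 lower, and 1 to 4 lower in the further lists (3 without line C, 1 without D and 1 without E). Scaling shifted the median of all genes from 0.006 with TMM to 0.018 with RLE and 0.046 unscaled.

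Depth limits what can be said of CLDN1, CLDN4 and CLDN10, whose counts were low in most libraries. Each condition of a line had 1 library, so the spread within a line was not measured.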
